A study of Mus musculus with 20 samples.

Results

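The 10 genes described here are *Myc*, its dimerization partner *Max*, the Max-binding repressors *Mxd1*, *Mxd4*, *Mxi1* and *Mnt*, the Myc target *Odc1*, and *Vegfa* with its receptors *Flt1* and *Nrp1*. They were chosen by symbol, and all 10 were found among the 20188 genes of the tumor table and among the 50667 Ensembl genes of the cell table. Mvt1 is a mouse mammary carcinoma line of the FVB strain that was derived from a tumor of a *Myc* and *Vegf* transgenic mouse. Reads from such transgenes cannot be told apart from reads of the mouse's own genes in these tables, so the *Myc* and *Vegfa* values below may hold both.

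RNA sequencing compared Mvt1 cells carrying an shRNA against *Rnaseh2c* (sh4) with cells carrying a scramble control shRNA (scr), both selected with puromycin. The tumor table holds mRNA of 3 scr and 3 sh4 primary tumors, which grew to day 30 after injection into mammary fat pads of FVB mice, the strain of the line, and each of 3 experiments gave 1 scr and 1 sh4 tumor. The cell table holds total RNA of 3 scr and 3 sh4 culture plates. Each group is 1 transduced line, so the knockdown and any other difference between those lines cannot be told apart, and p-values measure the spread between tumors or plates only. Tumor values are RPKM and cell values are FPKM, both of them reads scaled to the length of the gene and to the size of the library. The tables were normalized separately, so no level is compared between them, and no read numbers were given, so the depth behind each value is unknown.

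*Rnaseh2c*, the scaffold subunit of RNase H2, was measured at 26.9, 52.0 and 25.9 RPKM in the scr tumors and at 10.2, 22.4 and 19.8 RPKM in the sh4 tumors. In the cells it was 5.83, 7.06 and 5.34 FPKM in scr and 3.19, 5.36 and 4.28 FPKM in sh4. The sh4 tumors all lay below the scr tumors, while sh4 plate 2 lay just above scr plate 3. With limma, a moderated linear model fitted here across all genes on log2(value + 0.5), the adjusted p was 0.995 in tumors and 0.236 in cells. The epithelial keratin *Krt8* was abundant in all 12 libraries (269 to 349 FPKM in cells), but *Epcam* was at most 0.0228 FPKM and *Cdh1*, encoding E-cadherin, at most 0.0180 FPKM in cells. In tumors the 5 epithelial markers, *Epcam* and *Cdh1* included, all had a mean of at least 1 RPKM. Summed over 5 adipocyte markers, scr tumor 2 stood apart at 2424 RPKM, against 29.1 to 285 RPKM in the other tumors.

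Myc is a basic helix-loop-helix leucine zipper transcription factor that binds DNA as a heterodimer with Max, at E-boxes of which the canonical form reads CACGTG, and that drives ribosome production, metabolism and cell growth. The Mxd proteins, Mxi1 and Mnt also dimerize with Max, bind the same sites and repress. *Odc1* encodes ornithine decarboxylase, the enzyme that commits ornithine to polyamine synthesis and a classical Myc target. Vegfa is a secreted growth factor for blood vessels whose transcription is induced in hypoxia. Flt1 is a tyrosine kinase receptor for it that can act as a decoy, and Nrp1 is a coreceptor shared with semaphorins.

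Because the members include both binding partners and targets of Myc, their promoters were searched for the canonical E-box. In RefSeq windows of GRCm38.p6, which run from 250 bases before to 50 after a gene's start, 9 of the 10 genes were found (12 windows). The gene not found was *Myc* itself. The palindrome CACGTG occurred in 3 of the 9 genes (33.3%), against 8.09% of 27025 genes in the table (7.15% of 32851 windows). All 3 were genes of Max or of a Max partner, which make up most of the 9, and the *Odc1* window held none. Each stretch of 40 bases below is written 5′ to 3′ on the strand of its gene, with the E-box in capitals, and is shown to place the motif relative to the start:
Max (chr12:76962229-76962268, minus strand, motif from 3 bases before the start): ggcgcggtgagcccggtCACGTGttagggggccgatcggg
Mnt (chr11:74830784-74830823, plus strand, motif from 123 bases before the start): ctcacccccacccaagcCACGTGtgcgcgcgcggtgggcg
Mxd4 (chr5:34187907-34187946, minus strand, motif from 219 bases before the start): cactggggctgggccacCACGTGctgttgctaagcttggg

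A shorter motif, ACGTG, read on both strands as ACGTG or CACGT and contained in every CACGTG, is the core of the element bound by hypoxia-inducible factors. It occurred in 5 of the 9 members (55.6%) and in 21.8% of all genes. Of *Vegfa*, the window at the start nearer to the gene's end held it and the other window did not. That match lay within the coding part of all 9 protein-coding *Vegfa* transcripts of the GENCODE vM1 annotation, so it is a match in coding sequence. A match is a string of letters, and binding was not measured.

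None of the 10 genes passed an adjusted p of 0.05 in either table. In tumors, 0 of 13487 genes tested passed (0%), and the smallest adjusted p was 0.693 (limma). In cells, 270 of 21106 genes passed (1.28%), 110 of them higher (0.521%) and 160 lower (0.758%) in sh4. At an unadjusted p under 0.05 in this unpaired fit there were 1 member in tumors (*Vegfa*), against 4.18% of all genes, and 5 members in cells (*Max*, *Mxd4*, *Mnt*, *Odc1* and *Vegfa*), against 18.9% of all genes. With the experiment as a block, the unadjusted limma p in tumors was 0.0169 for *Vegfa* and 0.0486 for *Mxi1*. Over all genes the block also gave more such p-values (below).

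Counted by overlap of the groups, 1 of 10 members had all 3 sh4 tumors on one side of all 3 scr tumors, against 9.17% of all genes. In cells the count was 7 of 10, against 27.5% of all genes. In 3 of the 7 the sh4 plates were all higher (*Myc*, *Max* and *Odc1*, against 13.6% of all genes), and in 4 they were all lower (*Mxi1*, *Mnt*, *Vegfa* and *Nrp1*, against 13.8%). An exact two-sided permutation test of 3 against 3 gives p = 0.1 for each of these, the smallest it can give. The 3 that were higher in cells have the fewest exonic bases of the members. Differences in cells moved with transcript length (below), and its part in these counts was not tested. The median log2 fold change of sh4 against scr over the 10 members was -0.05 in tumors and -0.13 in cells, beside -0.04 and -0.0022 over all genes tested.

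**Figure D1:**
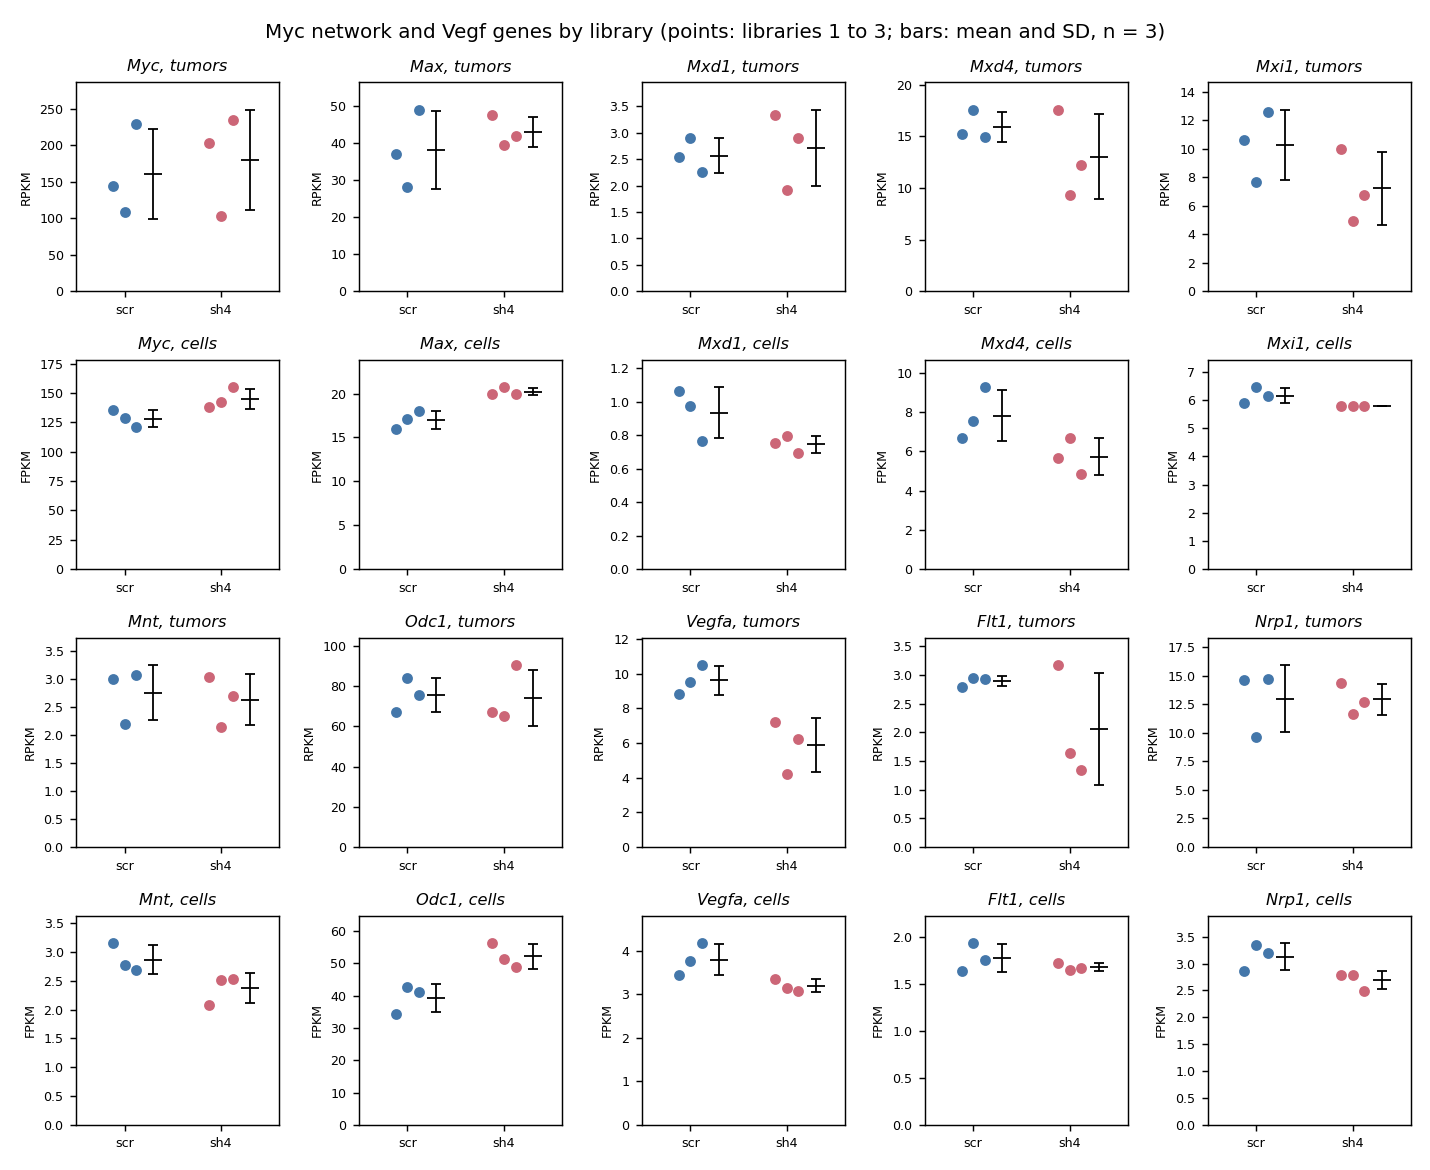
Values of the 10 genes in each library, with RPKM on the y axis for tumors and FPKM for cells, from 0, and scr and sh4 on the x axis. Points are libraries 1 to 3 of a group and the bar beside them is the mean with SD (n = 3). *Vegfa* is the one gene whose groups are apart in tumors, and *Myc*, *Max*, *Mxi1*, *Mnt*, *Odc1*, *Vegfa* and *Nrp1* are apart in cells.

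*Myc*, on chromosome 15 of mm9 (NCBIM37) from 61816946 to 61821929, was among the most abundant mRNAs, above 97.7% of the genes tested in tumors and 98.7% in cells. In the scr tumors it was 145, 108 and 229 RPKM (mean 161 ± 61.8, SD, n = 3) and in the sh4 tumors 204, 103 and 234 RPKM (mean 180 ± 68.7, SD, n = 3). The tumors of experiment 2 were the lowest in both groups and those of experiment 3 the highest, and the groups overlapped. The log2 fold change was 0.15 ± 0.37 (SE), with limma adjusted p = 0.997, and it turned to -0.10 without scr tumor 2 and to -0.08 without sh4 tumor 3.

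In culture *Myc* was 135, 129 and 121 FPKM in the scr plates (mean 128 ± 7.13, SD, n = 3). The sh4 plates held 138, 142 and 155 FPKM (mean 145 ± 8.76, SD, n = 3), all of them above the scr plates, although sh4 plate 1 and scr plate 1 lay close together. This gave a log2 fold change of 0.18 ± 0.07 (SE), with limma adjusted p = 0.265. Of its relatives, *Mycn* was at most 0.0849 RPKM in tumors and 0.0557 FPKM in cells, and *Mycl* at most 0.00829 FPKM in cells.

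*Max* (chromosome 12, 78038256 to 78063235) was 37.1, 28.3 and 49.1 RPKM in scr tumors and 47.6, 39.7 and 42.1 RPKM in sh4 tumors, with overlapping groups and a log2 fold change of 0.21 ± 0.22 (SE). In the cells its values were 15.9, 17.1 and 18.0 FPKM in scr (mean 17.0 ± 1.05, SD, n = 3) and 20.002, 20.694 and 19.965 FPKM in sh4 (mean 20.2 ± 0.410, SD, n = 3). The 3 sh4 plates were thus nearly equal and all above the scr plates. On the log2 scale the fold change was 0.24 ± 0.06 (SE), with limma adjusted p = 0.106. With median-ratio scaling in place of the deposited scale the adjusted p was 0.0335, and over all alternatives it ran from 0.0335 to 0.440.

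The 4 repressor genes were at lower levels per length than *Myc* in both tables. *Mxd4* (chromosome 5, 34516536 to 34530369) was the highest of them in the scr libraries of both tables. Its values were 15.2, 17.6 and 14.9 RPKM in scr tumors against 17.5, 9.35 and 12.2 RPKM in sh4 tumors. In the cells they were 6.68, 7.53 and 9.25 FPKM in scr (mean 7.82 ± 1.31, SD, n = 3) and 5.63, 6.69 and 4.82 FPKM in sh4 (mean 5.71 ± 0.936, SD, n = 3). Sh4 plate 2 and scr plate 1 were almost equal, and those groups met there. In cells the log2 fold change was -0.42 ± 0.15 (SE), with limma adjusted p = 0.212, and in tumors it was -0.32 ± 0.24 (SE).

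*Mxi1* (chromosome 19, 53384996 to 53450300) was 10.6, 7.68 and 12.6 RPKM in scr tumors and 10.0, 4.90 and 6.78 RPKM in sh4 tumors. The sh4 tumor was the lower one in each of the 3 experiments, and the groups overlapped. In tumors the log2 fold change was -0.51 ± 0.29 (SE), with limma adjusted p = 0.995, or 0.735 with the experiment as a block. In cells the scr plates held 5.91, 6.45 and 6.13 FPKM and the sh4 plates 5.80, 5.80 and 5.79 FPKM. The sh4 plates were below all scr plates by a small margin, with a log2 fold change of -0.08 ± 0.05 (SE) and limma adjusted p = 0.453.

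*Mnt* (chromosome 11, 74644422 to 74659227), the broadly expressed antagonist, was 2.99, 2.19 and 3.07 RPKM in scr tumors and 3.037, 2.142 and 2.699 RPKM in sh4 tumors, so that the groups covered nearly the same range. In cells it was 3.15, 2.76 and 2.69 FPKM in scr and 2.08, 2.51 and 2.53 FPKM in sh4, with all sh4 plates lower. Its log2 fold change in cells was -0.23 ± 0.09 (SE), with limma adjusted p = 0.258. *Mxd1* (chromosome 6, 86597038 to 86619153), a repressor induced during differentiation, was the lowest of the 4 in cells, at 0.768 to 1.06 FPKM in scr and 0.692 to 0.792 FPKM in sh4. In tumors it ranged from 2.25 to 2.90 RPKM in scr and from 1.92 to 3.33 RPKM in sh4.

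A ratio of *Max* to these 4 repressor genes, chosen after their values were seen, was taken in each library and is given without a test. *Max* divided by the sum of *Mxd1*, *Mxd4*, *Mxi1* and *Mnt* was 0.948, 0.965 and 0.956 in the scr plates and 1.40, 1.31 and 1.44 in the sh4 plates. In tumors it was 1.183, 0.933 and 1.498 in scr and 1.41, 2.17 and 1.71 in sh4. The plates were far apart, and the tumors overlapped in 1 pair, scr tumor 3 and sh4 tumor 1. With *Mxd3*, a further Max-binding repressor gene, added to the sum, the ratio was 0.776 to 0.819 in scr plates and 1.09 to 1.17 in sh4 plates, still apart. In tumors it was then 0.571, 0.402 and 0.743 in scr and 0.782, 0.656 and 0.671 in sh4, so that scr tumor 3 exceeded sh4 tumors 2 and 3. *Myc* divided by *Max* ranged from 6.73 to 8.50 in scr plates and from 6.88 to 7.76 in sh4 plates, with the groups overlapping. *Max* has 2005 exonic bases and the 4 repressor genes have 3882 to 5619. Differences in cells moved with transcript length (below), and its part in the ratio of *Max* to the repressor genes was not tested.

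**Figure D2:**
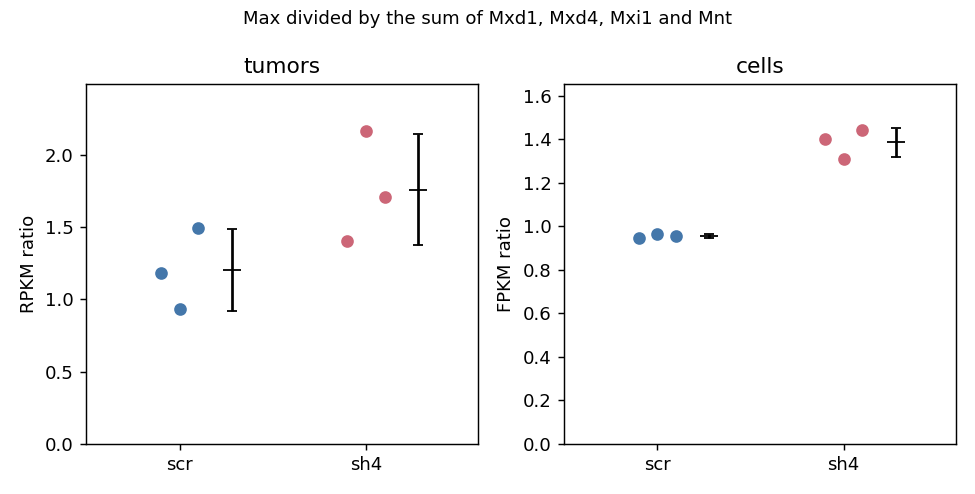
Ratio of *Max* to the sum of *Mxd1*, *Mxd4*, *Mxi1* and *Mnt* in each library, from 0, as an RPKM ratio for tumors and an FPKM ratio for cells. Points are libraries 1 to 3 of a group, and the bar is the mean with SD (n = 3). The scr plates sit between 0.948 and 0.965 and the sh4 plates between 1.31 and 1.44. The part of transcript length in this difference was not tested.

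The remaining genes of the network were measured as well. Of 7 other Myc and Mlx network genes 5 were tested in tumors and 4 in cells, and 0 passed the adjusted threshold. *Mxd3* had the highest mean of these in tumors, at 33.3 to 40.1 RPKM in scr and 27.0 to 42.2 RPKM in sh4. Of 15 genes for Myc cofactors and turnover, 15 were tested in tumors and 14 in cells, and 0 passed. The long noncoding RNA gene *Pvt1*, which begins 47613 bases after the end of *Myc*, was 8.11 to 10.2 RPKM in scr tumors and 9.80 to 11.3 RPKM in sh4 tumors.

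*Odc1* (chromosome 12, 17551679 to 17558308) had the highest level of the members after *Myc* in cells. Its values were 34.4, 42.6 and 41.1 FPKM in the scr plates (mean 39.4 ± 4.35, SD, n = 3) and 56.2, 51.2 and 48.9 FPKM in the sh4 plates (mean 52.1 ± 3.74, SD, n = 3). All sh4 plates lay above all scr plates. The log2 fold change was 0.40 ± 0.10 (SE), or 0.31 to 0.46 with 1 plate left out, with limma adjusted p = 0.106. The adjusted p was 0.0239 with quantile normalization and 0.0374 with median-ratio scaling, and over all alternatives it ran from 0.0239 to 0.589.

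In tumors *Odc1* was 67.4, 84.1 and 75.5 RPKM in scr and 67.2, 65.2 and 90.4 RPKM in sh4. The lowest and the highest tumor were both sh4 tumors, and the log2 fold change was -0.04 ± 0.19 (SE), with a 95% interval from -0.47 to 0.39.

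**Figure D3:**
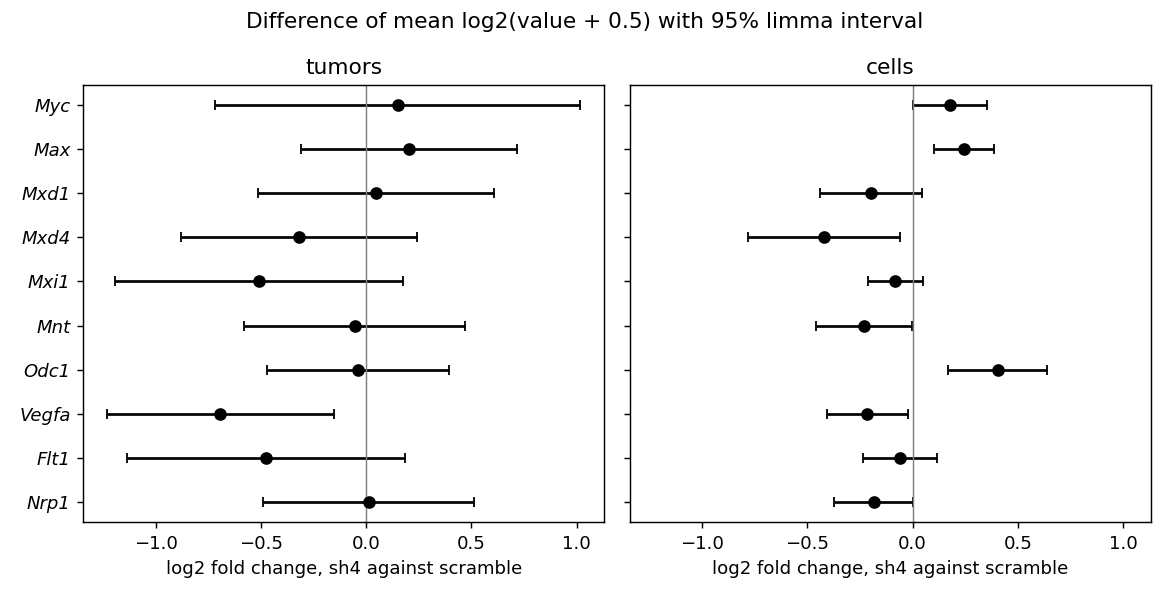
Log2 fold change of sh4 against scr on the log2(value + 0.5) scale for each of the 10 genes (x axis), in tumors and in cells, with 95% limma intervals (3 libraries per group). In cells the intervals of *Max* and *Odc1* lie above 0 and those of *Mxd4*, *Mnt* and *Vegfa* below it. In tumors only the interval of *Vegfa* leaves out 0.

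Around *Odc1* in the polyamine pathway, 12 genes were tested in cells, of which 7 had a positive log2 fold change, against 49.6% of all genes, 1 rose and 1 fell, against 0.521% and 0.758%. With quantile normalization 2 rose and 3 fell, with median-ratio scaling 3 rose and 2 fell, and with no filter or the replicate block 0 did either. *Srm*, encoding spermidine synthase, rose from 20.8, 24.8 and 22.3 FPKM in scr plates to 36.5, 35.0 and 33.4 FPKM in sh4 plates, and the groups were far apart. Its log2 fold change was 0.62 ± 0.08 (SE), with limma adjusted p = 0.0311. *Azin2*, encoding an antizyme inhibitor, fell from 0.959, 1.04 and 0.942 FPKM to 0.527, 0.565 and 0.502 FPKM, with a log2 fold change of -0.52 ± 0.07 (SE) and limma adjusted p = 0.0398. *Oaz1*, encoding the antizyme that targets Odc1 for degradation, was 39.5 to 50.6 FPKM in scr and 47.8 to 50.2 FPKM in sh4. In tumors 10 of the genes were tested and 0 passed.

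Of 28 established Myc target genes, most of them for ribosome biogenesis, translation and metabolism, 27 were tested in cells, and the log2 fold change was positive in 27 of 27 (median 0.27, range 0.08 to 0.62). With 1 plate left out 26 or 27 were positive, with a median from 0.20 (without scr plate 1) to 0.30 (without scr plate 2). Scr plate 1 was the lowest for this list, with a median deviation from the gene means of -0.27 (log2), against -0.07 and -0.05 in scr plates 2 and 3. Over all genes tested, 49.6% were positive, and 73.0% of the 2091 genes with a mean of at least 20 FPKM (median 0.08). The list was chosen with earlier results of these data known, so its shares are a description. Those that rose past the adjusted threshold were 2, *Srm* and *Ddx21*, an RNA helicase of the nucleolus, beside 0.521% of all genes. With quantile normalization and with median-ratio scaling 11 of the 27 rose, and with no filter or the replicate block 0 did. *Ddx21* rose from 26.0, 28.6 and 25.5 FPKM to 37.1, 34.2 and 36.0 FPKM, with a log2 fold change of 0.42 ± 0.06 (SE) and limma adjusted p = 0.0468. The sh4 plates lay above all scr plates in 18 of the 27, against 13.6% of all genes. *Ptma*, encoding the chromatin protein prothymosin alpha, had the highest mean of the list in cells, with a log2 fold change of 0.15 ± 0.11 (SE). *Npm1*, encoding the nucleolar protein nucleophosmin, had the highest mean in tumors, and its log2 fold change in cells was 0.28 ± 0.09 (SE).

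In the tumors the same list had 19 positive and 8 negative log2 fold changes of 27 tested, with a median of 0.07 and 0 past the adjusted threshold, and 15 to 20 of 27 were positive with 1 tumor left out. *Ncl*, encoding nucleolin, was 111, 137 and 139 RPKM in scr and 151, 181 and 198 RPKM in sh4, so that all sh4 tumors were higher. Its log2 fold change was 0.45 ± 0.18 (SE), with limma adjusted p = 0.995. *Ldha*, encoding lactate dehydrogenase A and also induced in hypoxia, had sh4 tumors at 451 to 483 RPKM, all below the scr tumors at 513 to 755 RPKM. In cells its sh4 plates were instead all above the scr plates, at 168 to 188 FPKM against 137 to 161 FPKM. The difference between the tables was not tested.

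**Figure D4:**
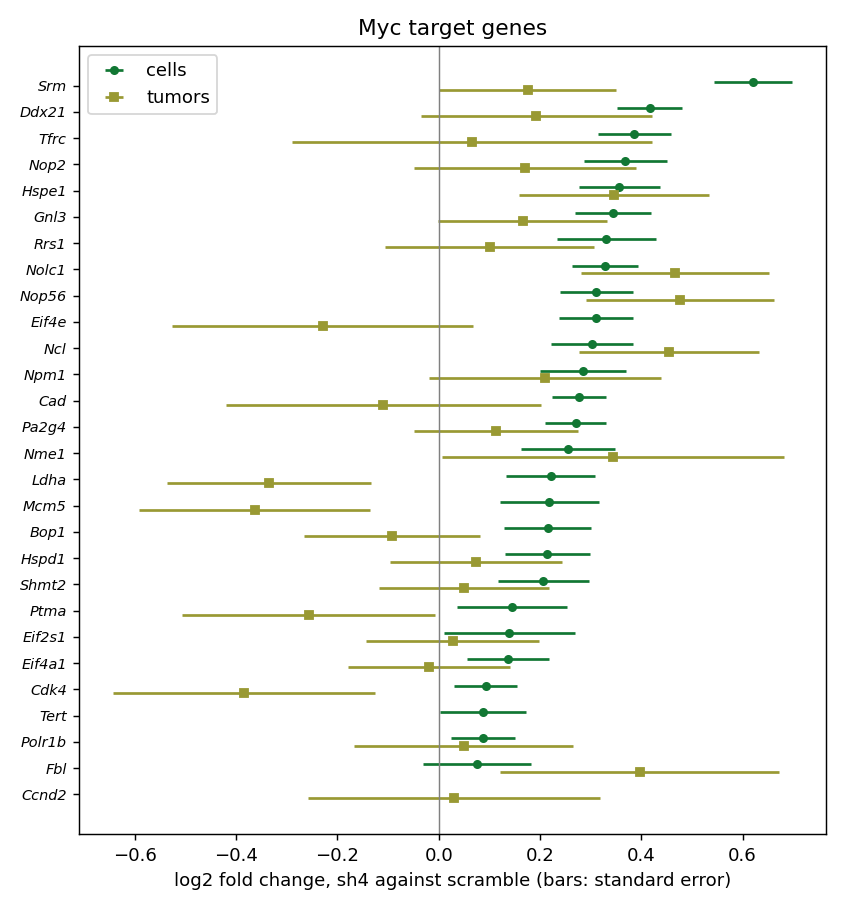
Log2 fold change of sh4 against scr (x axis) for the Myc target genes in cells (circles) and tumors (squares), with standard errors as bars (3 libraries per group). In cells the points of all 27 genes tested lie above 0, from 0.08 to 0.62 (18 of 27 with a covariate for transcript length), and in tumors 19 of 27 do.

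Differences in cells moved with transcript length. This touches the results on the members, on the ratio of *Max* to the repressor genes and on the Myc targets. An index of each library, the level of genes under 1000 exonic bases relative to those over 4000, was -0.057, -0.010 and -0.016 (log2) in the scr plates and 0.049, 0.040 and 0.0054 in the sh4 plates, higher in every sh4 plate. In tumors the index spread more widely, at -0.18, 0.25 and -0.28 in scr and -0.31, 0.37 and 0.052 in sh4. The tumor groups overlapped, and experiment 2 was highest in each. *Max*, *Odc1* and *Myc* have the fewest exonic bases of the members (2005, 2547 and 2717), and *Flt1* the most (11583). *Max*, *Odc1* and *Myc* were also the members higher in all sh4 plates. Those lower in all sh4 plates, *Vegfa*, *Mnt*, *Mxi1* and *Nrp1*, have 4293, 4627, 5619 and 5907 exonic bases. The index as a covariate was an alternative added after the data were seen. With it the log2 fold change in cells was smaller for *Max* (0.14), *Odc1* (0.09) and *Srm* (0.41). That of *Myc* was larger (0.35, against 0.18 without the covariate), and that of *Vegfa* moved further from 0 (below). Of the 27 Myc targets 18 were positive, with a median of 0.07. *Mnt*, negative without the covariate, turned slightly positive. As the index also separates the groups in cells, length and knockdown cannot be told apart in this fit. In the length bin that holds *Max*, *Odc1* and *Myc*, 50.4% of 2455 genes were positive in cells, with a median of 0.0013. The share was 57.3% of genes under 1000 bases and 44.2% of those over 4000. Within the bin of *Max*, *Odc1* and *Myc*, 74.6% of the 279 genes with a mean of at least 20 FPKM were positive (median 0.10). At that level 73.0% of genes of any length were positive (median 0.08). *Max*, with a mean of 18.6 FPKM over all plates, lay below that level.

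The calls in cells also changed when a plate was left out. Without any single plate except scr plate 1, between 2 and 18 genes passed in all, and *Srm* had an adjusted p of 0.0709 to 0.142. Without scr plate 1 *Srm* still passed (limma adjusted p = 0.0401), while *Ddx21* (0.0632) and *Azin2* (0.0547) did not. In the other leave-outs *Ddx21* had an adjusted p of 0.103 to 0.178 and *Azin2* of 0.110 to 0.162. Over all alternatives the adjusted p ran from 0.00838 to 0.243 for *Srm*, from 0.0233 to 0.263 for *Ddx21* and from 0.0233 to 0.252 for *Azin2*.

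*Vegfa* (chromosome 17, 46153942 to 46169326) was 8.83, 9.53 and 10.5 RPKM in the scr tumors (mean 9.62 ± 0.828, SD, n = 3). The sh4 tumors held 7.22, 4.18 and 6.25 RPKM (mean 5.88 ± 1.55, SD, n = 3), below every scr tumor and lower in each of the 3 experiments. The log2 fold change was -0.69 ± 0.23 (SE), with a 95% interval from -1.23 to -0.15. Limma gave an adjusted p of 0.995, and the values with 1 tumor left out ran from -0.84 to -0.48. In a mixed tissue such as a tumor, fewer cells that make a transcript and less of it per cell cannot be told apart.

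In culture *Vegfa* was 3.45, 3.76 and 4.17 FPKM in scr (mean 3.795 ± 0.361, SD, n = 3) and 3.36, 3.15 and 3.07 FPKM in sh4 (mean 3.19 ± 0.147, SD, n = 3). Again all sh4 libraries were lower, although sh4 plate 1 came close to scr plate 1. The log2 fold change was -0.21 ± 0.08 (SE), with limma adjusted p = 0.225, and with the length index as a covariate it was -0.39. In level *Vegfa* stood above 62.1% of the genes tested in tumors and above 58.4% in cells.

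The receptor *Flt1* (chromosome 5, 148373180 to 148537587) was 2.79, 2.95 and 2.93 RPKM in scr tumors and 3.17, 1.64 and 1.35 RPKM in sh4 tumors. The scr tumors were alike, while sh4 tumor 1 was the highest of all and the other sh4 tumors the lowest. Between the groups the log2 fold change was -0.48 ± 0.28 (SE), with limma adjusted p = 0.995. In cells *Flt1* was 1.64 to 1.93 FPKM in scr and 1.65 to 1.73 FPKM in sh4.

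The coreceptor *Nrp1* (chromosome 8, 130882973 to 131029362) was 14.6, 9.65 and 14.7 RPKM in scr tumors and 14.4, 11.7 and 12.7 RPKM in sh4 tumors, with a log2 fold change of 0.01 ± 0.22 (SE). In cells it was 2.85, 3.34 and 3.19 FPKM in scr and 2.79, 2.78 and 2.50 FPKM in sh4, with all sh4 plates lower. For the cells this was a log2 fold change of -0.19 ± 0.08 (SE), with limma adjusted p = 0.273. The related coreceptor *Nrp2* was higher in all sh4 plates, at 14.4 to 15.2 FPKM against 12.6 to 13.2 FPKM (log2 fold change 0.17, adjusted p = 0.151).

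Of 10 further Vegf ligands, receptors and semaphorin partners, 10 were tested in tumors and 7 in cells, and 0 passed in either. The lymphatic growth factor gene *Vegfd* was 3.47 to 5.27 RPKM in scr tumors and 1.89 to 3.57 RPKM in sh4 tumors. *Kdr*, encoding the main signaling receptor for Vegfa on endothelium, was 0.397 to 0.869 RPKM in scr tumors and 0.345 to 1.57 RPKM in sh4 tumors, and at most 0.0403 FPKM in cells.

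Alongside *Vegfa* in the tumors, 12 genes known to be induced in hypoxia were tested, and the log2 fold change was negative in 12 of 12 (median -0.35) and in 11 of 12 with the length covariate and on either other scale (median-ratio or quantile). Over all genes tested in tumors 42.6% were positive. None passed the adjusted threshold. In 6 of them all sh4 tumors lay below all scr tumors, against 4.98% of all genes. With 1 tumor left out 10 to 12 were negative, and without scr tumor 2, the tumor with the high adipocyte markers, 11 were, with a median of -0.33. Summed over the list the level was 890 to 1124 RPKM in scr tumors and 688 to 705 RPKM in sh4 tumors. The list was chosen with earlier results of these data known, so its shares are a description. The paper reports a lower primary tumor mass for sh4 than for scr in Mvt1. The part of tumor size in these differences was not tested.

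*Bnip3*, a mitophagy gene induced in hypoxia, showed the widest gap of the list, with 64.1, 49.5 and 61.0 RPKM in scr tumors and 43.1, 17.4 and 20.3 RPKM in sh4 tumors. All sh4 tumors were lower, with a log2 fold change of -1.20 ± 0.33 (SE), limma adjusted p = 0.995. *Egln3*, a prolyl hydroxylase that marks hypoxia-inducible factors for degradation and is itself induced in hypoxia, was 23.9, 23.9 and 25.0 RPKM in scr tumors and 17.4, 14.3 and 18.1 RPKM in sh4 tumors, again with all sh4 tumors lower.

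In the cells 11 of these genes were tested, with 4 positive and 7 negative, a median of -0.06 and 0 past the adjusted threshold. With 1 plate left out, the count of negative genes ran from 6 without sh4 plate 3 (median -0.02) to 10 without scr plate 1 (median -0.14). It was 8 of 11 with median-ratio scaling (median -0.07) and 10 with quantile normalization, 2 of which then passed (median -0.12). With the length covariate it was 11 (median -0.24). *Bnip3* was 13.2 to 15.9 FPKM in scr plates and 12.6 to 16.0 FPKM in sh4 plates. *Epas1*, encoding the oxygen-regulated factor Hif-2α, was 1.61, 1.16 and 1.00 FPKM in scr and 0.759, 0.693 and 0.650 FPKM in sh4, all sh4 plates lower, with a log2 fold change of -0.53 ± 0.14 (SE) and limma adjusted p = 0.118. The motif ACGTG described above occurred in the promoter windows of 9 of 11 hypoxia-induced genes found (81.8%), against 21.8% of all genes, and CACGTG in 7 of 22 Myc target genes found (31.8%), against 8.09%. The shares describe these windows.

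Markers of other cell types also shifted in the tumors, some up and some down, while *Vegfa* was lower in sh4. Their part in the difference in *Vegfa* was not tested. These lists too were chosen with earlier results of these data known. Of 12 endothelial markers 12 had a positive log2 fold change (median 0.54), or 11 with quantile normalization. With 1 tumor left out 10 to 12 were positive (10 without sh4 tumor 1), with a median from 0.39 to 0.65. In 6 all sh4 tumors were higher, against 4.19% of all genes, and 0 passed the adjusted threshold. Their summed level was 33.6 to 39.1 RPKM in scr tumors and 47.4 to 76.1 RPKM in sh4 tumors. *Emcn*, encoding an endothelial surface protein, was 3.85, 2.27 and 3.65 RPKM in scr and 8.92, 5.48 and 6.23 RPKM in sh4, with all sh4 tumors higher. In cells *Tie1*, *Emcn*, *Erg* and *Sox17* were listed at 0 in all 6 libraries.

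Of 5 T cell markers 5 were positive (median 1.07), with sums of 20.7 to 26.8 RPKM in scr tumors and 42.2 to 79.5 RPKM in sh4 tumors, and 4 of them were listed at 0 in every cell library. Of 6 macrophage markers 2 were positive (median -0.30), with sums of 1023 to 1185 RPKM in scr and 1124 to 1436 RPKM in sh4. Fibroblast marker sums were 238 to 639 RPKM in scr tumors and 327 to 805 RPKM in sh4 tumors. Of 5 adipocyte markers 0 were positive (median -1.31, or -0.12 without scr tumor 2). Of 5 epithelial markers 2 were positive (median -0.10). Of 2 erythroid markers tested 0 were positive, and *Hbb-b1*, a beta globin gene, was highest in scr tumor 2 at 340 RPKM. None of these genes passed the adjusted threshold.

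**Figure D5:**
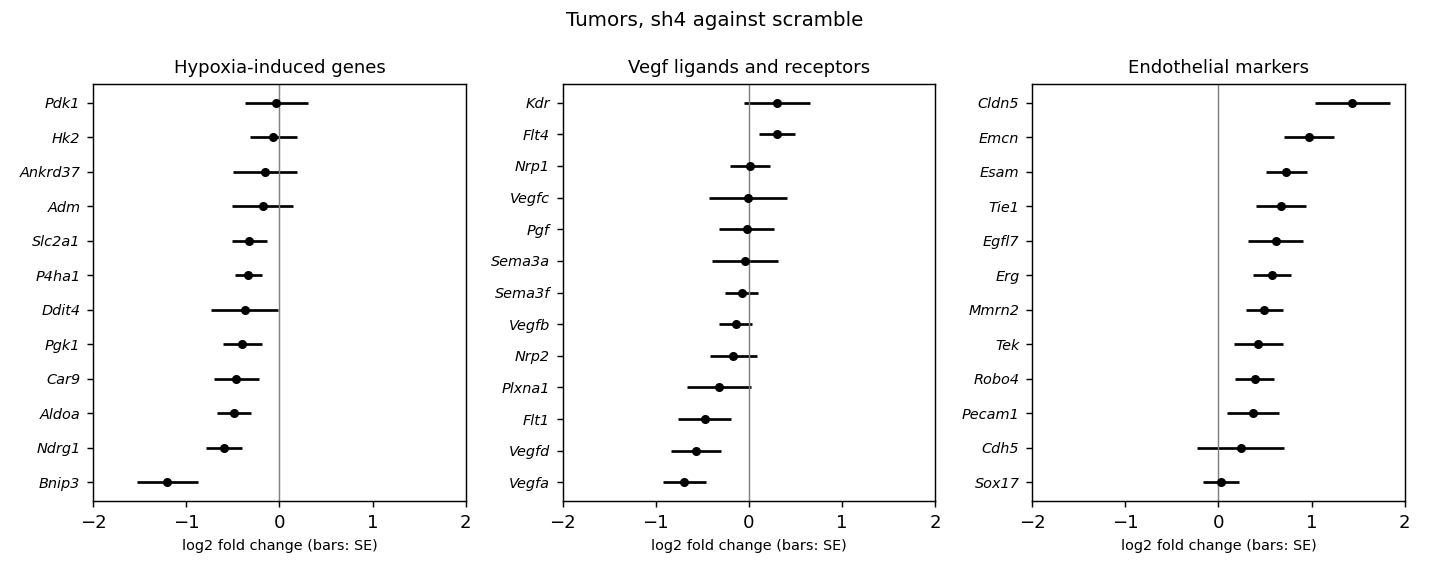
Log2 fold change of sh4 against scr tumors (x axis) with standard errors as bars (3 tumors per group), for 12 hypoxia-induced genes, for *Vegfa*, *Flt1*, *Nrp1* and 10 further Vegf pathway genes, and for 12 endothelial markers. On the deposited scale the 12 hypoxia-induced genes lie below 0 and the 12 endothelial markers above it (11 of 12 each with quantile normalization), while *Vegfa* is the lowest of the Vegf pathway genes.

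The genes whose pattern was most like that of *Myc* and *Vegfa* were found by the root mean square difference of log2 values, each gene centred on its mean within its table, over 12 libraries and 8510 genes. For *Vegfa* they were *B4galt5*, a lactosylceramide synthase gene (0.0702), *Rarg*, encoding a retinoic acid receptor (0.0724), and *Dusp9*, encoding a phosphatase of MAP kinases (0.0936). The deviation of *Vegfa* from its own means was 0.307. *B4galt5* had a log2 fold change of -0.62 in tumors and -0.32 in cells, and *Rarg* of -0.59 and -0.29. *Dusp9* had -0.66 in tumors and -0.01 in cells. For *Myc*, whose own deviation was 0.353, the 3 nearest genes included *Fnbp4* (0.141) and *Fam185a* (0.144). The 12 libraries share normalization within each table, and the likeness is a description.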

How the data were processed

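Per the methods, the authors made the deposited tumor RPKM from mRNA reads after Trimmomatic trimming, Tophat alignment (mm9, Ensembl v70) and import into Partek; the counting program is not given in the sources used here. The cell values are FPKM, deposited for Ensembl genes and for assembled loci, of which 239874 were not used. The methods name Tophat for the cells, while the submitters' processing notes name TopHat2 2.1.0 and STAR 2.7 with no roles. The exome libraries of metastases were not analysed here.

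Each table was fitted alone with limma 3.58.1 in R 4.3.3 on log2(value + 0.5), with a variance trend, for genes averaging 0.1 or more over 6 libraries, and Benjamini-Hochberg adjustment over all of them. A fold change on this scale understates that of low genes. Symbols, coordinates and exonic lengths came from GENCODE vM1 on NCBIM37 (mm9), and *Azin2* is listed there as *Adc* and *Vegfd* as *Figf*. Tumor numbers pair the groups, since a number marks an experiment; the correlations of same-numbered tumors after removal of group means were 0.138, 0.330 and -0.117. The fit was tested on simulated data. The members and lists were chosen with earlier results of these data known. Named were the members, *Rnaseh2c*, the 3 genes most like *Myc* and *Vegfa*, and of each list the genes called and the 2 of highest mean; other genes were named after their values were seen, and 1 gene that the rule names is not reported here.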

Additional observations from a re-analysis of the deposited data

How the results depend on the processing

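Results were recomputed with other pseudocounts (0.1 and 1), without the filter or with one at a mean of 1, with quantile normalization or median-ratio scaling, without the variance trend, with the replicate number as a block, without each library in turn and, added after the data were seen, the length index as a covariate. In cells the 270 genes called became 77 with no filter, 408 with a mean of at least 1, 1223 with quantile normalization (545 higher, 678 lower), 1045 with median-ratio scaling (552 higher, 493 lower, or 52.8% higher against 40.7%), 171 without the trend, 1 with the length covariate and 2 to 242 with 1 plate left out. With the replicate block 0 were called in cells, where no source says that a plate number pairs the groups and the correlations of same-numbered plates were -0.061, -0.075 and -0.073. The block changed no call among the members at the adjusted threshold. In tumors 0 genes were called under any alternative (911 against 564 at an unadjusted p under 0.05 with and without the block). The members called in cells were 1 with quantile normalization (*Odc1*), 2 with median-ratio scaling (*Odc1* and *Max*) and 0 under the other alternatives.

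In tumors the log2 fold change of *Mnt* turned to 0.0213 with quantile normalization and to 0.0182 with the length covariate, and that of *Odc1* to 0.0226 with median-ratio scaling. With 1 tumor left out, *Myc* ran from -0.10 to 0.51, *Mxd1* from -0.0900 to 0.24, *Mnt* from -0.19 to 0.0620, *Odc1* from -0.19 to 0.0487 and *Nrp1* from -0.18 to 0.11. *Fnbp4* ran from -0.0853 (without scr tumor 2) to 0.40. In cells the length covariate turned *Mnt* to 0.0027, *Ptma* to -0.13 and *Ldha* to -0.0379, and *Dusp9* ran from -0.0695 to 0.0297 with 1 plate left out. *Srm*, *Ddx21* and *Azin2* were not called with no filter, with the block or with the length covariate. With 3 libraries per group and no read numbers, small differences were not resolved.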
